A study of Tetranychus urticae with 8 samples.

Results

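A set of 199 genes of the plant-feeding spider mite Tetranychus urticae was read at a middle level in adult males and at a level typically 8.15 times lower in adult females. The genes were chosen by their measured values, from 17654 gene IDs in all. A member had an ID ending in 0, a mean of 10 to under 200 counts per 1000000 gene reads (CPM) in males and a log2 ratio of the male mean to the female mean between 2.8 and 3.2. Its highest male library also had to stay under 3 times its lowest. The direction and the size of the difference between the sexes were therefore fixed by the choice of the members, and their values in the 2 sexes are given as a description. The deposited table names genes by ID alone, and the RefSeq gene table of the mite pairs none of these IDs with a name, so nothing is said of what any member does.

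The libraries came from whole bodies of adult mites of strain London, raised on detached bean leaves. There were 4 libraries of males, each from about 800 animals aged 1 to 2 days, and 4 libraries of females, each from about 200 animals aged 3 days. Sex, age and the number of pooled animals changed together and cannot be told apart. The male libraries held 12082575 to 21414612 gene reads and the female libraries 12912850 to 17443223.

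Spider mites are haplodiploid: an unfertilized egg gives a male and a fertilized egg a female. A young mated female turns much of her food into eggs, and the ovary with its growing eggs fills a large part of her body, whereas the male is much smaller and carries testes. RNA from a whole body is a mixture of all its tissues, and CPM is a share of that mixture, so a gene that is read mainly outside the ovary takes a smaller share wherever the ovary adds much RNA of other genes. The 199 genes were set apart to ask whether many genes share a single ratio between the sexes, as tissue diluted to the same degree by egg RNA would show. In such bulk samples fewer cells of a type and less RNA per cell cannot be told apart.

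The ratio window held 515 IDs, of which 280 had a male mean under 10 CPM and 28 a mean of 200 CPM or more. Of the 207 IDs left, 7 did not end in 0 and 1 varied too much between male libraries. At the lower edge of the ratio window the nearest member had a log2 ratio of 2.802 and the nearest gene outside 2.7997. At the upper edge these values were 3.199 and 3.202. The male means nearest to the lower level limit were 10.19 CPM inside and 9.94 CPM outside, and those nearest to the upper limit 195.7 CPM inside and 200.6 CPM outside. The most variable member differed by 2.52-fold between its highest and lowest male library, and the ID left out for its spread by 5.11-fold. The edges of the window thus cut through a continuous range of ratios, while the limit on male spread removed a single gene.

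Males had every member at a level well clear of females. Male means ran from 10.19 to 195.7 CPM with a median of 30.1, and female means from 1.18 to 26.6 CPM with a median of 3.61. By male mean, 58 members stood at 10 to under 20 CPM, 77 at 20 to under 50, 37 at 50 to under 100 and 27 at 100 to under 200. CPM is not corrected for gene length, so these levels do not rank the members by number of transcripts. Every male library was above every female library in 199 of 199 members, as it was in 44.0% of the 12885 genes tested. The lowest male library was at least 4.09 times the highest female library in each member, with a median of 6.26. All 199 members passed the filter on low counts and all were called higher in males (at least 2-fold in the edgeR fit, with a quasi-likelihood p under 0.05 after Benjamini-Hochberg adjustment over all tested genes), against 30.5% of all tested genes. Since the ratio chose the members, both counts follow from the choice.

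**Figure D1:**
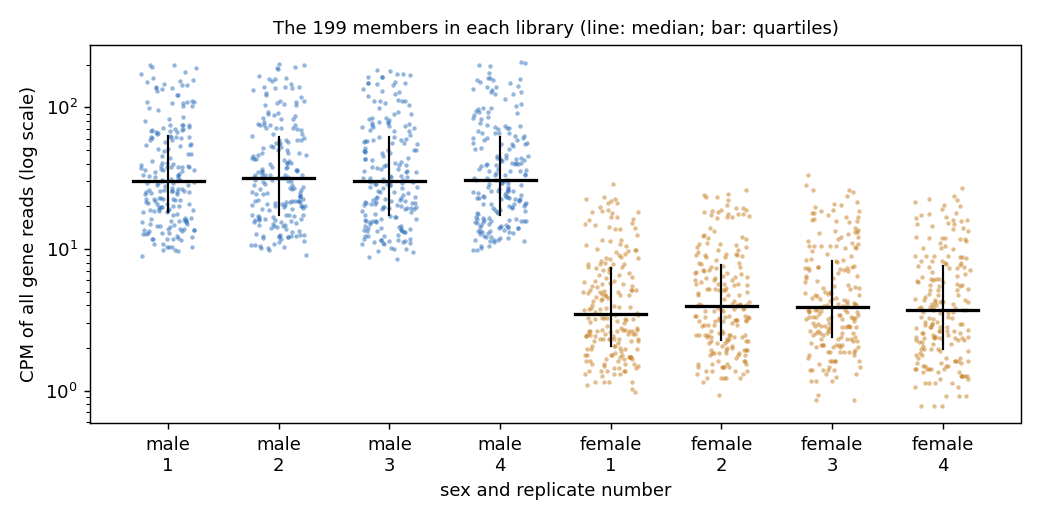
CPM of the 199 members (points, log scale) in each male and female library, with the median as a horizontal line and the quartiles as a vertical bar. The medians of the 4 male libraries lie close together and far above those of the 4 female libraries, as the choice of the members requires, and each library spans more than a 10-fold range of levels.

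Both members named here were picked by a fixed rule, as the member with the highest male mean and the member whose ratio was closest to the median ratio. The gene tetur07g05970 had 200.2, 189.6, 183.5 and 209.5 CPM in male replicates 1 to 4, against 23.1, 24.6, 33.5 and 22.6 CPM in female replicates 1 to 4. Its male libraries stayed within 1.14-fold of each other, and female replicate 3 stood above the other 3 females. It averaged 195.7 ± 11.5 CPM in male libraries, against 26.0 ± 5.1 CPM in female libraries (SD, n = 4 each), with 12286 reads behind the first and 1476 behind the second. Its fitted log2 fold change, male minus female, was 2.93 ± 0.10 (SE).

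The gene tetur18g01800 had 79.9, 89.6, 77.8 and 84.6 CPM in male replicates 1 to 4, against 9.80, 11.1, 8.52 and 11.3 CPM in female replicates 1 to 4. Here female replicate 3 was the lowest of the females, the opposite of its place in tetur07g05970. It averaged 83.0 ± 5.3 CPM in male libraries, against 10.2 ± 1.3 CPM in female libraries (SD, n = 4 each), a ratio of 8.15. The fitted log2 fold change was 3.04 ± 0.08 (SE).

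Taken as a sum, the members had 9565, 9633, 9437 and 9620 CPM in male replicates 1 to 4, against 1148, 1226, 1281 and 1131 CPM in female replicates 1 to 4. Males averaged 9563 ± 89 CPM, against 1197 ± 70 CPM for females (SD, n = 4 each). The members together thus took 0.956% of the male gene reads and 0.120% of the female gene reads, a ratio of 7.99. The sum varied by 0.932% between male libraries and by 5.83% between female libraries (coefficient of variation). The rule limited the spread between male libraries, which removed 1 gene, and set no limit on the spread between female libraries.

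Genes did not gather at a log2 ratio of 3 as a separate group. There were 7132 genes that met the rule in everything but the ratio, called steady mid-level genes here, and 199 of them fell in the window (2.79%, 95% exact binomial interval 2.42% to 3.199%). In successive windows of width 0.4 the counts were 280 genes from 1.6, 242 from 2.0 and 208 from 2.4. The next windows held 199 genes from 2.8, 157 from 3.2, 92 from 3.6 and 40 from 4.0. The count therefore fell at every step, slowly up to 3.2 and steeply after 3.6. The upper flank was fuller than the lower one. On the female side the mirror window, log2 ratios of -3.2 to -2.8, held 45 genes, the one from -2.8 to -2.4 held 121 and the one from -3.6 to -3.2 held 35. The limits were set on the male level alone, so the male and female sides hold genes of unlike female level and are not directly comparable. With the level set on the mean of both sexes, the share in the window was 2.10%.

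In steps of 0.1 the window held 42, 47, 51 and 59 genes, and the step after it 47. The highest of these steps, 3.1 to 3.2, is above its neighbours by 8 and 12 genes, while the counting error of 59 genes alone is close to that size. Between 2.0 and 2.8 the steps held 47 to 67 genes. From 3.8 on, no step held more than 14.

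**Figure D2:**
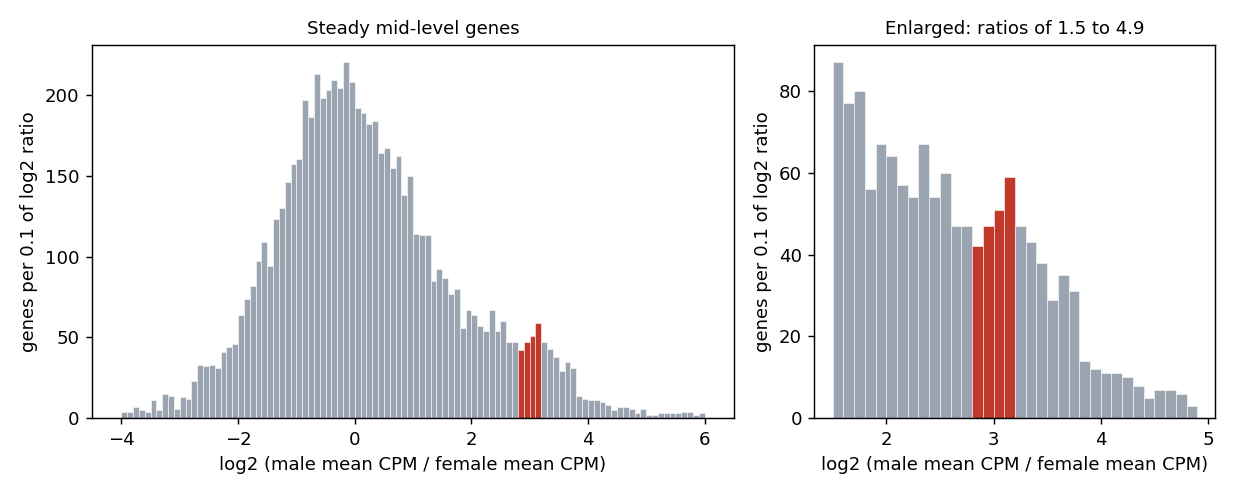
Number of steady mid-level genes per 0.1 of the log2 ratio of male mean to female mean CPM, over the whole range (left) and enlarged (right), with the members in red. The members lie on a shoulder of the distribution that falls away after 3.6 and form no peak set apart from the genes beside them.

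The share of genes in the window ranged from 2.18% to 3.31% over 5 classes of male level. Among steady genes at 10 to under 20 CPM in males, 3.25% fell in the window (58 of 1782), and among those at 20 to under 50 CPM 2.96% (77 of 2605). The shares were 2.18% at 50 to under 100 CPM (37 of 1699) and 2.58% at 100 to under 200 CPM (27 of 1046). The 95% exact binomial intervals of these 4 shares overlapped, the highest lower bound being 2.48% and the lowest upper bound 2.99%. Above the level range of the members, at 200 CPM or more, the share was 3.31% (28 of 847, interval 2.21% to 4.74%). Those abundant genes were spread otherwise over the windows beside it, with 22 genes from 2.4, 30 from 3.2, 28 from 3.6 and 22 from 4.0. The windows beside it also differed within the members' range of levels. At 100 to under 200 CPM they held 31 genes from 2.4, 15 from 3.2, 11 from 3.6 and 8 from 4.0, and at 10 to under 20 CPM 60, 54, 33 and 13. The count thus dropped after 3.2 at the higher of these levels and after 3.6 at the lower, and these contrasts were not tested.

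How far a single ratio describes the members was read from the error of each fitted difference. The median fitted log2 fold change was 3.04, or 8.22-fold, and the members had a standard deviation of 0.115 around it. An even spread of genes over the window would give the same standard deviation, 0.115, so the window sets this value. The median standard error was 0.110, close to the 0.105 that read counting alone gives. That it is near the standard deviation does not tell whether a single ratio holds. The 95% interval of 183 of the 199 members held the common value of 3.04. Of the other 16, 14 lay below it and 2 above. Fitted values ran from 2.803 to 3.219, which left more room below the common value than above it. The median log2 ratio was also lower among members at 100 to under 200 CPM in males (2.97) than at 10 to under 20 CPM (3.04). Members with few reads had wide intervals and held the common value more readily. Of the 50 members with the fewest female reads (69 to 122 over the 4 libraries), the intervals of all 50 held it. Of the next 50 members 49 did, and of the 49 after them 45. Of the 50 with the most female reads (457 to 1541), 39 did. The share that held it was thus lowest where the intervals were narrowest, and the window leaves little room for any member to differ.

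Because the windows were cut on the ratio itself, how often the common value lies in the intervals of other genes depends mostly on their distance from it and is given as a description. It lay in the 95% interval of 21 of the 208 genes in the window below (10.1%) and of 42 of the 157 in the window above (26.8%). No interval held it among the 242 genes from 2.0 to 2.4 or the 92 from 3.6 to 4.0. Taking log2 ratios from 2.0 to 4.0 together, 898 genes had a standard deviation of 0.529 around their own median of 2.82, about the 0.577 of an even spread, against a median standard error of 0.105. The share of genes whose interval held the median of their own range fell with the width of the range taken. It was 92.0% of 199 genes from 2.8 to 3.2, 63.2% of 383 from 2.6 to 3.4, 42.4% of 564 from 2.4 to 3.6 and 25.6% of the 898. Since the width chosen sets this share, it does not tell whether a single ratio holds. Whether any of these genes is read in tissue that egg RNA dilutes was not tested, since the IDs are not tied to tissues.

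**Figure D3:**
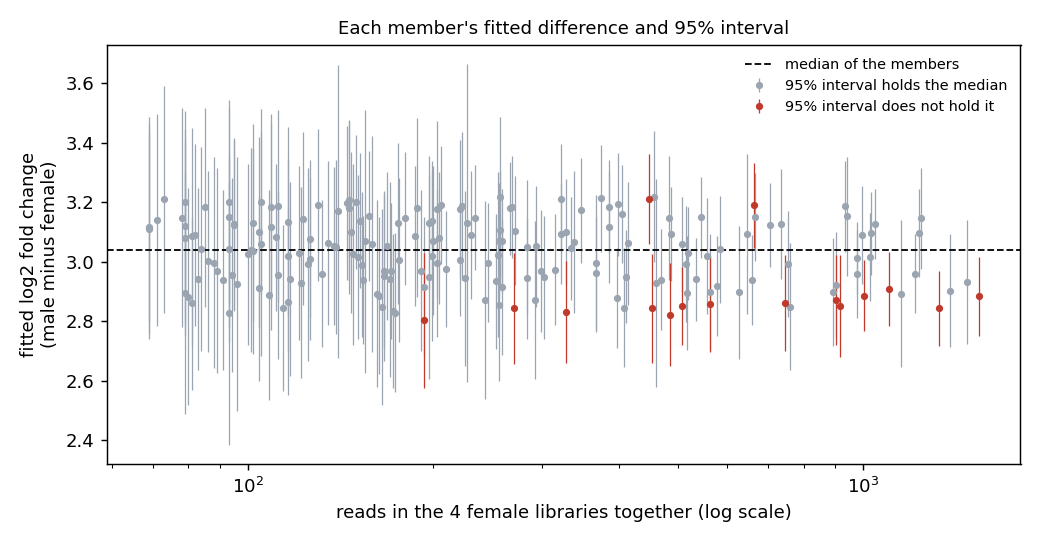
Fitted log2 fold change (male minus female) of each member with its 95% interval, against the reads in the 4 female libraries together (log scale). The dashed line is the median of 3.04. The 16 members in red, whose intervals do not hold it, lie at 193 reads or more, 14 of them below the line. Fitted values had more room below the line than above it.

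For a single member, the spread between female libraries was nearer to read counting error than the spread between male libraries. The median ratio of observed spread to counting error was 1.18 in females and 1.51 in males. The median coefficient of variation of a member was 6.82% between male libraries and 14.8% between female libraries. Read counting alone gives 4.70% in males and 14.0% in females at the members' levels. The median number of reads per library was 478.5 in males and 51.5 in females. Genes of the windows below and above had female values of 12.8% and 14.9%, with counting errors of 11.3% and 16.3%. Differences between female libraries were not tested in single members, and 36 members had under 20 reads in at least 1 female library. The widest spread between female libraries was 3.17-fold, in a member with 11 to 43 reads per female library.

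Across the 199 members, however, the female libraries were shifted as a group. The median level of a member relative to its own female mean was 0.961, 1.027, 1.080 and 0.930 in female replicates 1 to 4. Female replicate 3 was the highest female library for 94 members, against 22, 57 and 26 for female replicates 1, 2 and 4. Female replicate 4 was the lowest for 76. Of the members, 136 (68.3%) were higher in female replicate 3 than in female replicate 4, as were 57.0% of all steady mid-level genes. The corresponding medians in male replicates 1 to 4 were 0.999, 1.011, 0.979 and 1.011, a narrower range.

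This shift was shared with the genes beside the window and, in female replicate 3, was larger at higher ratios up to a log2 ratio of 3.6. In female replicate 3 the median relative level was 0.999 for genes with log2 ratios of -0.4 to 0, 1.026 from 1.2 to 1.6, 1.069 from 2.4 to 2.8 and 1.084 from 3.2 to 3.6. In female replicate 4 it was 0.993, 0.977, 0.950 and 0.963 in the same windows. The share of reads in genes called higher in females moved the other way and was lowest in female replicate 3. It was 49.2%, 49.1%, 48.6% and 49.3% in female replicates 1 to 4. Summed levels relative to their female mean were also taken over steady genes of at least 10 CPM in males, without an upper limit on level. For the 227 such genes with log2 ratios of 2.8 to 3.2 they were 0.925, 0.992, 1.096 and 0.988 in female replicates 1 to 4. The 89 genes with ratios from 4.4 to 6 had 0.921, 0.956, 1.133 and 0.990, and the 93 genes with 6 or more had 1.003, 0.969, 1.014 and 1.014. By this measure the rise in female replicate 3 was smallest in the 93 genes. A few abundant genes can set such a sum, so it is not directly comparable with the medians. With 4 female libraries no correlation was computed, and the part of female-biased RNA in the members' levels was not tested.

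**Figure D4:**
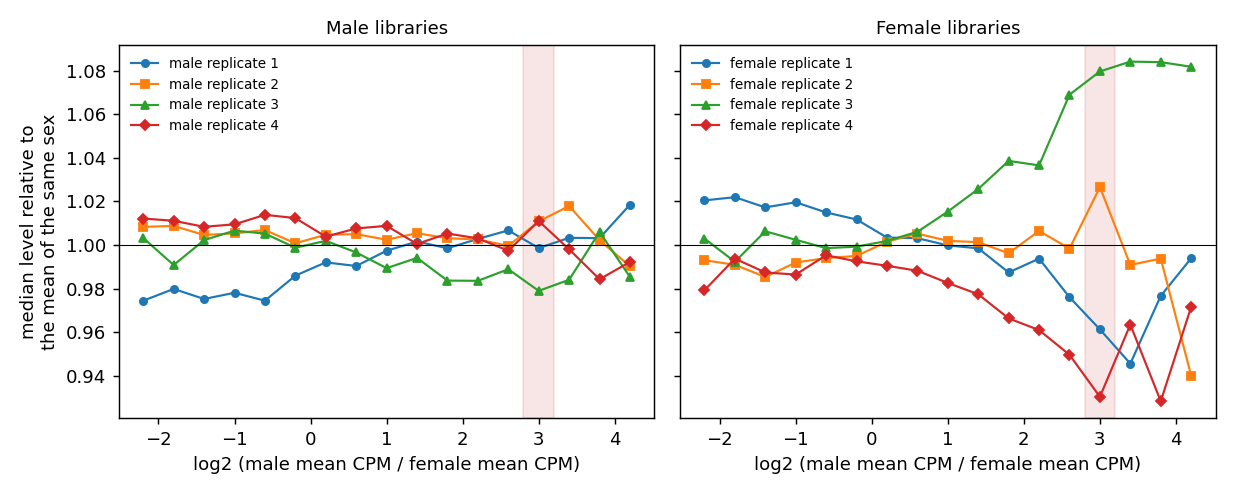
Median level of the steady mid-level genes in each male library (left) and each female library (right), relative to the mean of the same sex, by window of the log2 ratio of male to female mean CPM (width 0.4; the members' window is shaded). Female replicate 3 leaves the other female libraries upwards as the ratio grows, to 1.080 at the members' window, while the male libraries stay between 0.974 and 1.019.

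The members came from many ID prefixes. The first part of an ID, before the letter g, took 39 different values among them. All steady mid-level genes, a far larger set, took 96, so these counts are not directly comparable. The prefix tetur04 held 14 members (7.04% of them, against 5.71% of steady mid-level genes), tetur05 held 13, and tetur01 and tetur10 held 12 each. As a share of its steady mid-level genes, tetur02 had 1.22% members (7 of 574) and tetur22 7.29% (7 of 96), around the 2.79% over all prefixes. There were 5 pairs of members with consecutive IDs in the table, and the other 189 members stood alone, so no run was longer than a pair. The tested IDs directly before or after a member with the same prefix filled 308 places, an ID between members being counted for each. Of these places, 10 were held by members themselves. Around all steady mid-level genes, counted in the same way, 188 of 12042 places were held by members, a lower share, and this difference was not tested.

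IDs next to a member were more often called higher in males than IDs next to steady mid-level genes, as were those next to the genes beside the window. Of the 308 tested places next to a member, 115 (37.3%) were called higher in males and 79 (25.6%) higher in females. Among the 115 were 10 places held by members, whose call was fixed by the choice of the members. Around all steady mid-level genes the share called higher in males was 28.2%, and over all tested genes it was 30.5%. The share called higher in males was 36.3% around the genes of the window below and 46.8% around those of the window above. The share called higher in females was 26.2% around all steady mid-level genes, 20.4% around the window below and 21.9% around the window above. These shares were not tested, and reads shared between copies of a gene were not examined.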

How the data were processed

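The authors deposited raw read counts for each gene ID, per the file headers, in a column per library, with 0 columns unused. The submitters' processing notes name STAR 2.4.1d and HTSeq 0.6.1. How multiply mapped reads were handled, the build, the annotation and the strand setting are not given in those notes, so reads of near-identical or overlapping genes may be split. Libraries were strand-specific and poly(A)-selected, per the labels' protocols.

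CPM is the count over the column sum, as the rule has it. Sexes were compared with edgeR 4.0.16 (R 4.3.3; filterByExpr, trimmed mean of M values (TMM) scaling, quasi-likelihood F test, sex as the only term) on 12885 genes, checked on simulated data. Standard errors are the log2 fold change over the square root of F, and 70 members had one below their counting error. Over all tested genes the median of log2 fold changes was 0.05. Intervals of shares are Clopper-Pearson and cover counting error only. The labels call the libraries biological replicates without naming cultures, so a p-value here reflects the spread between these pools, which may be technical. Within a sex, every pair of libraries differed by more than sampling noise (chi-square per degree of freedom of 3.54 or more). Other settings were DESeq2 1.42.0, limma-voom (limma 3.58.1), other scalings, filters and limits, the replicate block, and leaving out each library. Since 0 of the 17654 IDs occur in the species' gene table, no gene list was used, and 2 IDs were named: the member with the highest male mean and the one closest to the median ratio. The members and lists were chosen with earlier results of these data known.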

Additional observations from a re-analysis of the deposited data

How the results depend on the processing

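All 199 members stayed called higher in males under each of the 16 alternatives to the edgeR fit, which follows from the choice of the members. The count over all genes ranged from 2966 of 10235 tested (filter at 5 CPM in 4 libraries) to 4573 of 16141 (no filter on low counts). It was 3935 of 12885 in the main fit, so these counts differ largely with the number of genes tested. With the replicate block 3932 genes and all 199 members were called. The replicate numbers did not pair the libraries (correlations of same-numbered deviations from -0.093 to 0.035), and 1 of the 8 libraries correlated best with its own number. The rule found 195 to 206 genes under the other settings and 189 to 214 with a library left out. Under upper quartile scaling, which moves the median of all tested genes from 0.05 to 0.27 on the log2 scale, 76 of its 195 genes were members. Without female replicate 2 there were 165 members among 189 genes. The share of steady mid-level genes in the window moved to 3.31% at 200 CPM or more and to 2.10% with the level set on both sexes, which by construction count other genes, and was 2.65% to 3.00% with a library left out. The summed level was 9540 to 9606 CPM in males and 1168 to 1218 CPM in females with a library left out. The median spread between female libraries, 14.8%, was 13.4% without female replicate 3 and 13.4% to 14.2% over the 4 such values. Each of these 4 values rests on fewer libraries than the 14.8% and is not directly comparable with it. Between 183 and 197 members held the common ratio under other errors and intervals, 185 with standard errors kept at or above counting error. The called share of IDs next to members was 35.3% to 41.9%. The settings behind the called share and the spread between female libraries, and the limit at counting error, were chosen after seeing the data. Depth limits the female side most, with 69 to 1541 reads per member over 4 libraries.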

Other observations

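Dixon's gap test, at its critical value of 0.829 for 4 libraries, flagged a single library in 11 of the 199 members in males and in 7 of 199 in females. Chance passes that value in about 1 of 20 groups, so these counts are near what chance gives. The member with the widest male spread had 38.3, 30.1, 50.3 and 19.99 CPM in male replicates 1 to 4, against 3.84, 3.92, 3.64 and 4.39 CPM in female replicates 1 to 4. Its male libraries differed by 2.52-fold and its female libraries by 1.205-fold. It was described after its values were seen.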
